A study of Mus musculus with 10 samples.

Results

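The mammary fat pads of Fap-null mice were compared with those of wild-type mice when both were fed a high-fat diet, with 5 of the 10 libraries of the series. Genes were taken in if they reached at least 1 TPM (a transcript level corrected for gene length and scaled to the same total in each library) in at least 2 of the 5 high-fat libraries, which kept 16144 of the 30319 genes with a symbol. Both groups were female FVB mice, an inbred strain. They received a diet with 60% of calories from fat between weeks 12 and 30 of age. WT_HFD (n = 2) was wild type at Fap and Null_HFD (n = 3) carried the FAP-/- genotype. The low-fat groups WT_LFD (n = 2) and Null_LFD (n = 3) had the same genotypes on an ingredient-matched diet with 10% of calories from fat. Their values are set beside the high-fat ones. They also enter the fit, so the SE and p-value of each high-fat difference rest on the spread within all 10 libraries. Total RNA came from whole inguinal fat pads, a depot that holds adipocytes, stroma, mammary epithelium and a lymph node. The labels do not give the deleted exons of Fap or the alleles' origin.

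Fibroblast activation protein is a serine protease on the surface of activated fibroblasts that cleaves after proline. It cuts denatured collagen as well as signalling peptides, and the series was made to ask about its part in adipocyte formation and in mTOR signalling through the matrix. Fat tissue that expands on a rich diet remodels its collagen, takes up and makes lipid, and recruits macrophages. These processes set the gene groups described here.

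The 5 high-fat libraries did not form 2 compact groups. A lymph node score, the mean log2(TPM + 1) over markers of B cells, T cells and lymph node stroma, was 1.66 in WT_HFD 1, 1.66 in Null_HFD 1 and 1.69 in Null_HFD 2. It was 4.89 in WT_HFD 2 and 6.06 in Null_HFD 3, so each genotype had 1 library rich in lymph node transcripts. In the low-fat libraries, which lend their spread to the fit, the score was 1.35 to 1.72, so none of them was rich in such transcripts. The B cell list summed to 29.1 and 622 TPM in WT_HFD against 25.3, 31.7 and 1531 TPM in Null_HFD, and the T cell list to 55.0 and 708 TPM against 45.4, 33.1 and 1882 TPM. Null_HFD 3 also had the lowest summed TPM of the mature adipocyte, mammary luminal and skeletal muscle lists and the lowest share of mitochondrially encoded TPM, 3.36% against 5.91% to 9.76% in the other 4. The part of this difference in the results was not tested, so values are given for each library or, for list medians, also with these 2 libraries left out. Leaving them out sets Null_HFD 1 and 2 against WT_HFD 1 alone, and the value between them is 1 library against 1. Such values have no wild-type spread. Read depth could not be judged, since TPM keeps no read numbers.

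Fap was measured at 68.8 and 37.7 TPM in WT_HFD 1 and 2 and at 26.7, 38.4 and 22.3 TPM in Null_HFD 1, 2 and 3. Null_HFD 2 lay just above WT_HFD 2, so the groups overlapped. The difference of null minus wild type was -0.82 on the log2(TPM + 1) scale (SE 0.30), with an unadjusted p of 0.0225 and an adjusted p of 1.00. On the low-fat diet the groups did not overlap, at 45.4 and 39.2 TPM in WT_LFD and 18.4, 22.4 and 18.3 TPM in Null_LFD. The values are per gene and do not show which exons the reads came from, so Fap is no full check of the genotype labels.

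Across the 16144 genes, limma called 2 (0.0124%), with 0.05 as the largest adjusted p allowed. At an unadjusted p under 0.05 there were 631 genes (3.91%), 315 higher and 316 lower in the null libraries, where 807 would be counted if no gene differed. The median difference over all genes was 0.018. In 1267 genes (7.85%) all 3 null libraries lay above both wild-type libraries, and in 1252 genes (7.76%) all 3 lay below. Such groups are called separated here. Separation is a description of 5 libraries and not a test, and these 2 shares are the background against which the share of each gene group is read.

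Both called genes were processed pseudogenes, which are intron-less copies of the mRNA of another gene. Rps12l1, at chromosome 7, 56014016 to 56014414 (GRCm38), fell from 1524 and 2544 TPM in WT_HFD to 0.0447, 2.10 and 2.79 TPM in Null_HFD. The log2 difference was -9.74 (SE 0.93), with an adjusted p of 0.0333. Gm18588, at chromosome 3, 68902267 to 68902758, fell from 15.0 and 48.5 TPM to 0, 0 and 0.521 TPM, a log2 difference of -4.61 (SE 0.49) with an adjusted p of 0.0431. The low-fat libraries of the 2 genotypes overlapped for both genes, at 25.7 to 329 TPM for Rps12l1 and 14.9 to 37.3 TPM for Gm18588.

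The sequences of these genes matter for reading the 2 calls, because reads of identical copies cannot be assigned to one of them. All 399 bases of Rps12l1, an open reading frame from start to stop codon, were identical to Rps12, the parent gene of a small-subunit ribosomal protein on chromosome 10, and to Rps12-ps3 on chromosome 19. Rps12-ps9 on chromosome 8 differed at 2 of the 399 bases. The stretch from base 48 to base 107, counted from the start codon and read from the GENCODE transcripts, shows the first of them in capitals, C78T.
Rps12l1: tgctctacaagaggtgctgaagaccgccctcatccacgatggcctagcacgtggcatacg
Rps12: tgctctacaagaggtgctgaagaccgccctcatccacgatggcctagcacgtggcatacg
Rps12-ps3: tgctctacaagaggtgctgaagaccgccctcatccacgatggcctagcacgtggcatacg
Rps12-ps9: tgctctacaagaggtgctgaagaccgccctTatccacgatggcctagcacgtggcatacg
Rps12 itself was listed at 0 in every high-fat library. Rps12-ps3 was listed at 1067 and 1272 TPM in WT_HFD and at 1197, 942 and 3043 TPM in Null_HFD. Summed over these copies and Rps12-ps10, the level was 3043 and 3995 TPM in WT_HFD against 1395, 1114 and 3315 TPM in Null_HFD. The groups overlapped, and the summed difference was -1.01 (SE 0.54) with an adjusted p of 1.00 by limma. Gm18588 matched the lipid-binding protein gene Osbpl9 over 489 bases without a mismatch, and their summed level was 163 and 209 TPM against 165, 174 and 151 TPM (-0.17, SE 0.18, adjusted p 1.00). Gm10123, a pseudogene with the third-smallest p, was listed at 0.0113 and 0 TPM in WT_HFD and 308, 149.6 and 109.9 TPM in Null_HFD. It is 98.99% identical over 495 bases to Ppia, the gene of cyclophilin A, and the sum over it and 6 genes that share sequence with it, among them Ppia and, over 244 bases, the unrelated gene Gclm, differed by 0.35 (SE 0.34, adjusted p 1.00). With these 3 families summed, limma called 0 genes, with 628 genes at an unadjusted p under 0.05.

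**Figure D1:**
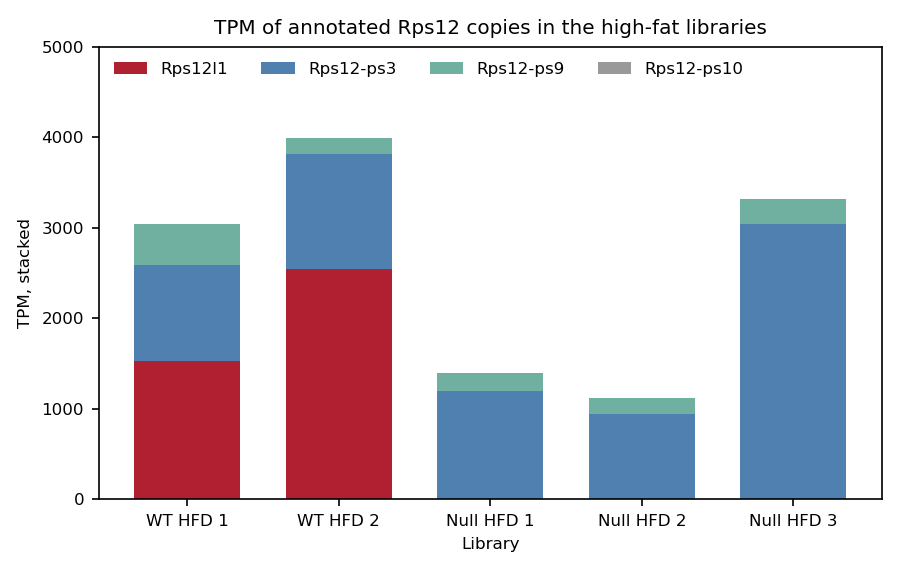
Stacked TPM of the annotated Rps12 copies in each of the 5 high-fat libraries, with the library on the horizontal axis. Rps12l1 makes up 1524 and 2544 TPM of the wild-type bars and at most 2.79 TPM of the null bars, while the bar of Null_HFD 3 reaches 3315 TPM, between the wild-type bars.

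Among genes annotated as protein coding, the imprinted gene Mest, whose expression in fat is known to follow fat mass expansion, had the smallest p. It was measured at 19.7 and 8.66 TPM in WT_HFD and 108, 260.2 and 106 TPM in Null_HFD, so every null library lay well above both wild-type libraries. The difference was 3.36 (SE 0.46) with an adjusted p of 0.125, which did not pass the threshold. It was 3.03 without the lymph node-rich libraries and 3.46 between them. On the low-fat diet both genotypes lay between 17.2 and 32.7 TPM, and the genotype difference on the high-fat diet exceeded that on the low-fat diet by 3.03 (SE 0.64, unadjusted p 0.00107, adjusted p 0.91).

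The other genes with the largest positive differences, among those with a group mean of at least 5 TPM and separated groups, serve a range of functions, and none passed the test. Supt5, a subunit of a transcription elongation factor, was measured at 0.667 and 0.00172 TPM in WT_HFD and 18.8, 7.79 and 26.0 TPM in Null_HFD (3.70, SE 0.54, adjusted p 0.158). It was low in both low-fat groups, at 1.24 and 0 TPM in WT_LFD and 0.00952, 0.000592 and 0.278 TPM in Null_LFD. The catalytic phosphatase subunit Ppp4c lay at 7.63 and 0.00023 TPM in WT_HFD against 31.7, 38.6 and 46.9 TPM in Null_HFD. For both genes the lower of the 2 WT_HFD values was that of WT_HFD 2, near 0. Ret, a receptor tyrosine kinase for ligands of the GDNF family, lay at 2.15 and 4.42 TPM against 10.5, 21.4 and 13.7 TPM (1.92, SE 0.37). Serpinh1, the chaperone that folds procollagen, lay at 41.0 and 19.4 TPM against 149, 97.2 and 118 TPM. On the low-fat diet its null libraries spread from 8.93 to 179 TPM, and the SE of its difference of 2.04 was 1.02. Itpr1, a calcium channel of the endoplasmic reticulum, lay at 8.64 and 3.18 TPM against 23.7, 21.1 and 29.3 TPM. Rnase2a, of the eosinophil ribonuclease family, lay at 0 and 4.34 TPM against 7.75, 8.86 and 11.5 TPM. The ribosomal protein gene Rps27 lay at 21.7 and 193 TPM against 474, 228 and 1456 TPM. It shares sequence with another gene, and its low-fat libraries spanned 32.3 to 441 TPM in both genotypes together.

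The genes with the largest negative differences included secreted carrier proteins and enzymes of small-molecule metabolism. Mup10, of the major urinary protein family of lipocalins, was measured at 77.9 and 41.8 TPM in WT_HFD and 6.17, 2.31 and 2.25 TPM in Null_HFD (-3.77, SE 0.61, adjusted p 0.249). Mup7 followed at 9.10 and 6.83 TPM against 0.396, 0 and 0 TPM. The family members share most of their sequence, and the sum over Mup10 and 14 related genes in the file was 93.8 and 60.7 TPM against 8.70, 4.14 and 5.99 TPM, so the separation held for the sum. The cytochrome P450 enzyme Cyp2e1 lay at 728 and 897 TPM against 102, 149 and 36.9 TPM (-3.27, SE 0.72, adjusted p 0.735), with -2.55 without the lymph node-rich libraries. Inmt, an N-methyltransferase of indole amines, lay at 178 and 122 TPM against 50.7, 10.7 and 22.4 TPM. Another cytochrome P450 gene, Cyp2f2, lay at 3.95 and 35.5 TPM against 1.26, 2.39 and 2.40 TPM. WT_HFD 2 stood apart there, and the difference was -0.84 without the lymph node-rich libraries against -3.42 between them. Gchfr, which regulates the first enzyme of tetrahydrobiopterin synthesis, lay at 31.9 and 12.3 TPM against 11.8, 1.09 and 1.91 TPM, with WT_HFD 2 and Null_HFD 1 close together. It was separated the same way on the low-fat diet, at 30.8 and 22.2 TPM against 1.10, 1.54 and 1.52 TPM. Gchfr lies on chromosome 2 (from 119167773), as does Fap (from 62500943), and the part of linkage to Fap was not tested.

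In Grip2, Col4a3 and C2cd4c, among others, Null_HFD 3 lay between the wild-type libraries and the other 2 null libraries. Grip2, a scaffold protein gene, lay at 11970.5 and 14333 TPM against 349, 1094 and 6331 TPM. These per-gene values do not show which part of Grip2 the reads came from, so they are not read as levels of its coding mRNA. Col4a3, a collagen chain of basement membranes, lay at 48.2 and 54.9 TPM against 1.41, 4.20 and 43.0 TPM, and C2cd4c lay at 9.44 and 12.4 TPM against 0.169, 1.09 and 6.75 TPM. The difference of Grip2 was -4.27 without the lymph node-rich libraries and -1.18 between them, that of Col4a3 -3.8 and -0.34, and that of C2cd4c -2.74 and -0.79.

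A further 4 lower genes were picked with their values in view. Dusp23, a dual-specificity phosphatase, lay at 46.9 and 38.3 TPM in WT_HFD against 6.84, 12.4 and 9.91 TPM in Null_HFD (-2.05, SE 0.31, adjusted p 0.177). Tor1aip1, a protein of the inner nuclear membrane, lay at 378 and 495 TPM against 66.3, 114 and 151 TPM (-2.04, SE 0.31, adjusted p 0.177). Both were separated the other way on the low-fat diet, with Dusp23 at 20.2 and 14.6 TPM against 39.5, 25.2 and 22.7 TPM and Tor1aip1 at 109 and 121 TPM against 195, 186 and 218 TPM. Penk, the precursor of enkephalin peptides, lay at 69.0 and 88.7 TPM against 22.9, 24.4 and 9.60 TPM. Fam13a, a gene linked to fat distribution, lay at 247 and 211 TPM against 145, 85.1 and 14.4 TPM, lowest in Null_HFD 3.

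**Figure D2:**
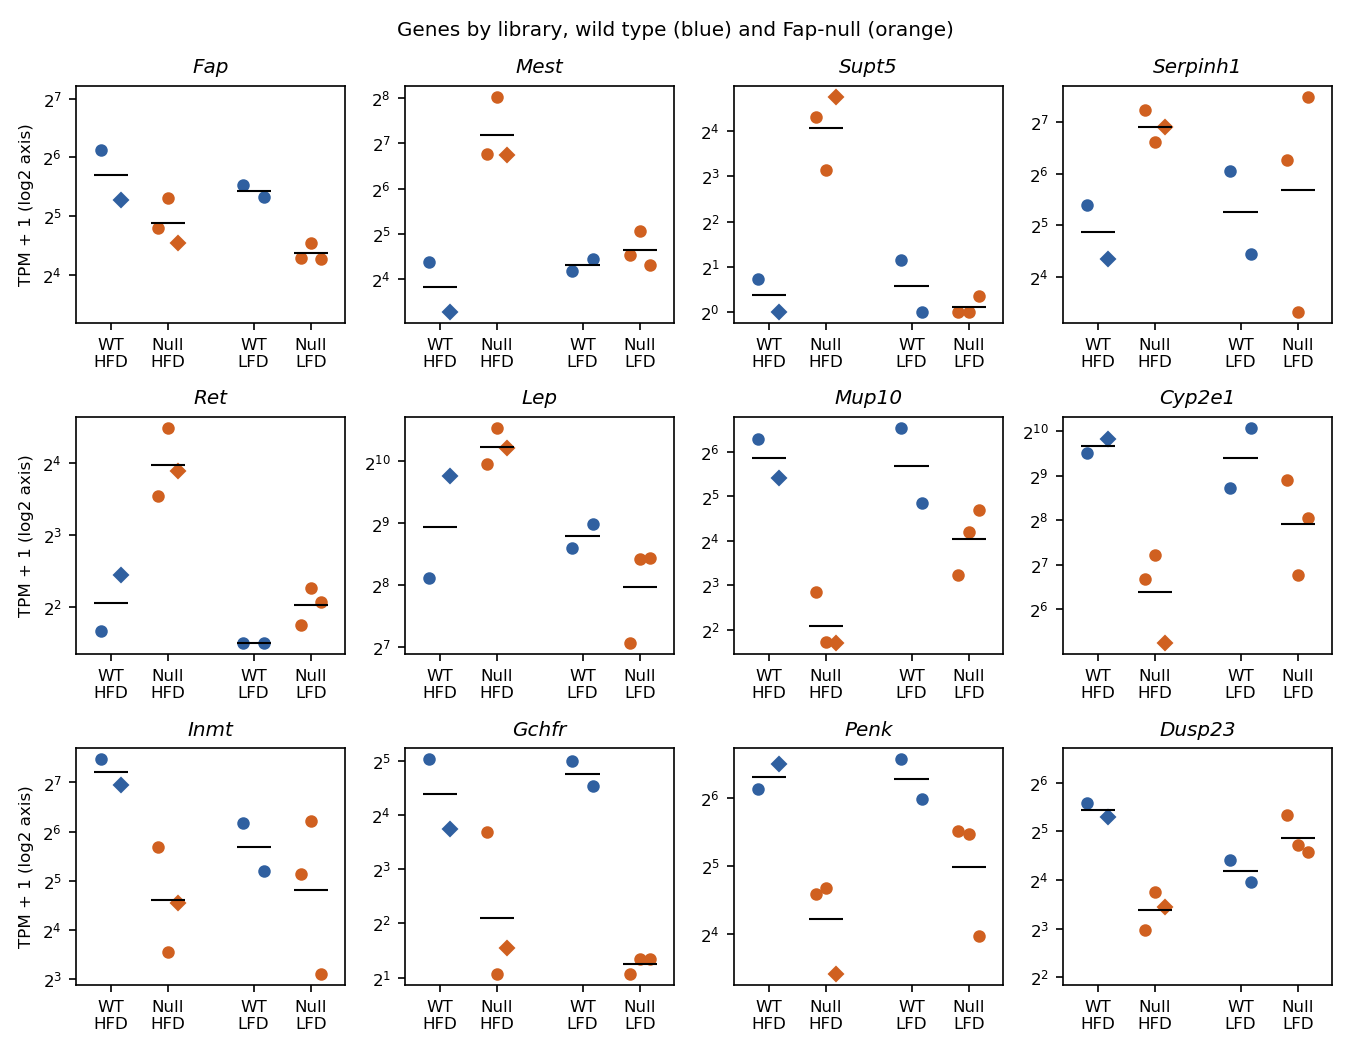
TPM + 1 on a log2 axis for 12 genes, with each point 1 library, the bar the mean of the log2 values, and diamonds the lymph node-rich libraries WT_HFD 2 and Null_HFD 3. Except for Fap, where Null_HFD 2 lies just above WT_HFD 2, the high-fat libraries of the 2 genotypes are separate in every panel; Mest stands at 106 to 260.2 TPM in Null_HFD and at 8.66 to 32.7 TPM elsewhere.

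Gene groups were described with 41 lists, of which 797 members were tested. No list member was called, and limma gave each of them an adjusted p of 1.00, so the unadjusted p-values below serve only to rank them. Members named beyond the 4 of smallest p in each list were picked with their values in view. The counts of separated members and the list medians follow, beside 7.85% separated higher, 7.76% separated lower and a median of 0.018 over all genes.

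**Figure D3:**
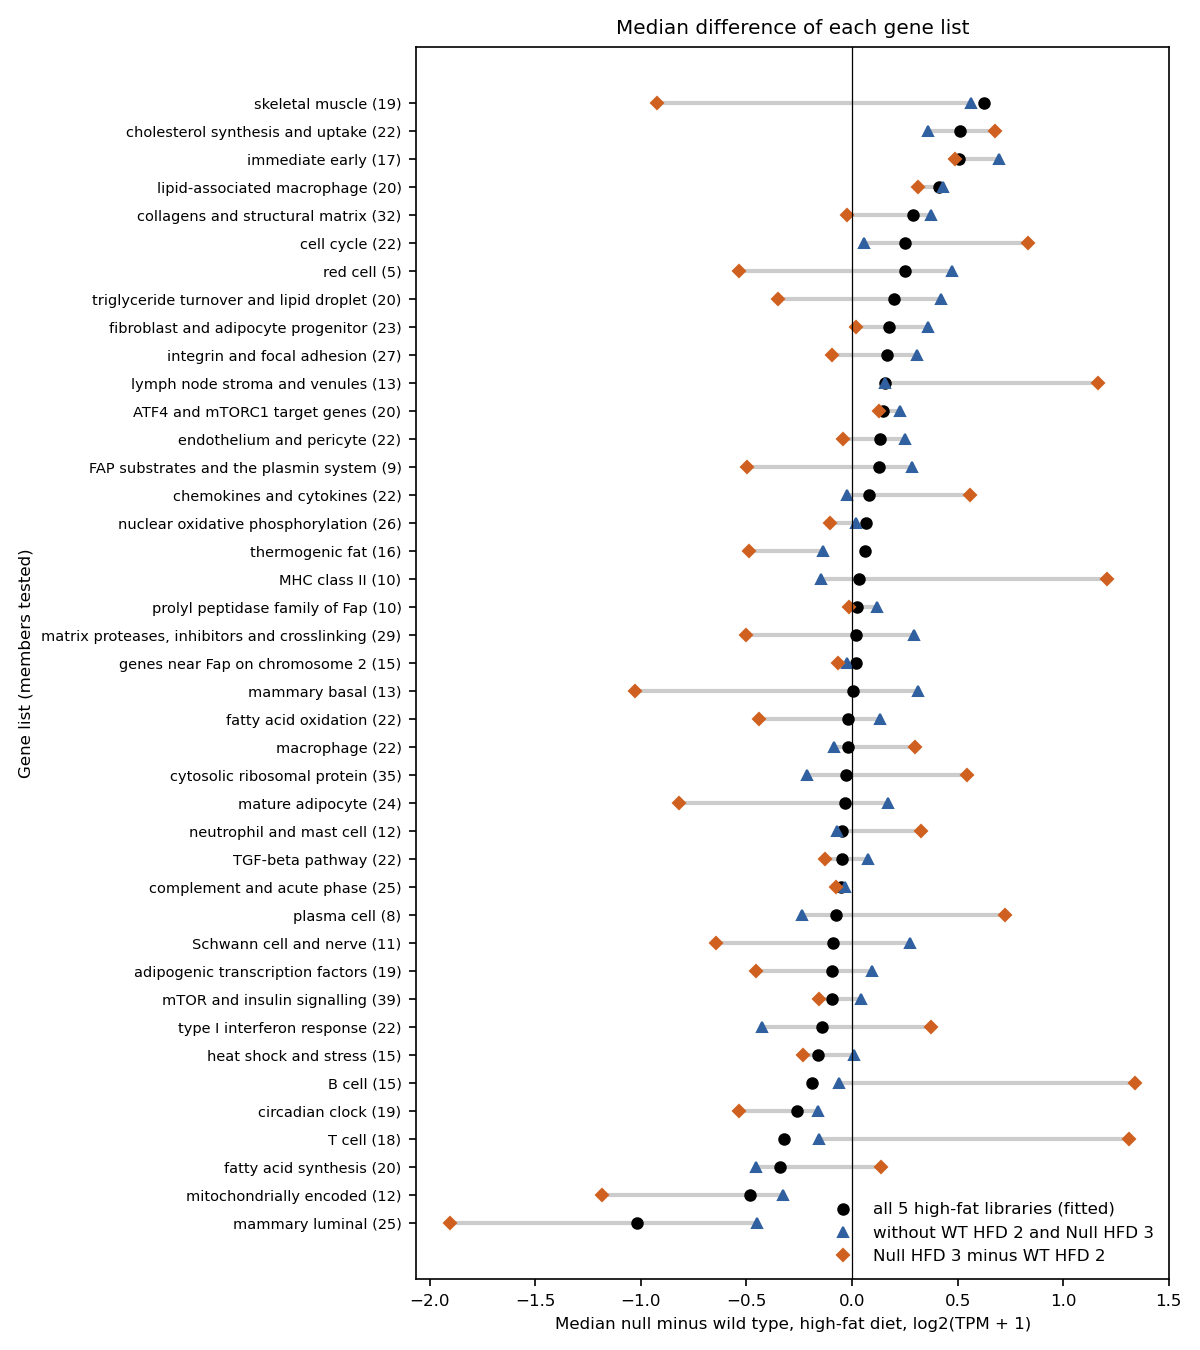
Median log2(TPM + 1) difference of null minus wild type on the high-fat diet for each gene list on the vertical axis, from all 5 libraries (circles), without the lymph node-rich libraries (triangles) and between those 2 libraries (diamonds). The B cell and T cell lists sit at -0.061 and -0.16 without those libraries and at 1.34 and 1.31 between them, whereas cholesterol synthesis and uptake is at 0.36 and 0.68.

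Genes of cholesterol synthesis and uptake mostly had a higher mean in the null group, but Null_HFD 1 lay near WT_HFD 1. The list summed to 644 and 452 TPM in WT_HFD against 656, 1099 and 781 TPM in Null_HFD. Of 22 members, 20 had a higher mean and 2 a lower one. In 7 (31.8%) the groups were separated with null higher, and in 0 with null lower. The list median was 0.51, with 0.36 without the lymph node-rich libraries and 0.68 between them. Hmgcs1, which makes the hydroxymethylglutaryl-CoA of the pathway, was measured at 120.0 and 59.2 TPM in WT_HFD and 179.9, 293 and 180.1 TPM in Null_HFD (1.32, SE 0.40, unadjusted p 0.00879). Mevalonate kinase, Mvk, lay at 14.9 and 10.5 TPM against 32.4, 24.9 and 17.5 TPM. The sterol demethylase Cyp51 lay at 8.51 and 8.26 TPM against 10.7, 20.8 and 15.6 TPM. Among the null libraries, Null_HFD 2 was highest for Hmgcs1 and Cyp51, and Null_HFD 1 was highest for Mvk and closest to the wild-type range for Cyp51. Further separated members, the sterol carrier gene Stard4 and the enzyme genes Idi1 and Ebp, had differences of 0.62, 0.49 and 0.19.

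Transcription factors of the SREBP family switch on this pathway through sterol regulatory elements, so promoters were searched for the element's letters TCACNCCAC on both strands, from 250 bases before to 50 bases after the start site. RefSeq promoters (GRCm38.p6) matched 15 of the 22 genes, and 1 of them held the motif, against 1.44% of the 27025 genes in the table and 1.40% of the 10870 genes tested. That gene was Hmgcs1, the member with the largest difference, with the match 137 bases before the start site, in the stretch chr13:119690204-119690233 of the plus strand. It is shown as the motif found at the member with the largest difference, with the match in capitals.
Hmgcs1: cgtcaccgtcTCACCCCACttcccaggtcc
A match of letters is a description and does not show binding.

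The lists of fat cell function had no common direction. The 24 mature adipocyte markers had a median of -0.032, with 0.17 without the lymph node-rich libraries and -0.82 between them, and their summed level was 53337 and 41572 TPM in WT_HFD against 56047, 59332 and 21026 TPM in Null_HFD. Defining markers of adipocytes were thus present in all 5 libraries and lowest in Null_HFD 3. Lep, the gene of the satiety hormone leptin, was measured at 277 and 865 TPM in WT_HFD and 990.4, 1492 and 1192 TPM in Null_HFD (1.3, SE 0.54, unadjusted p 0.0388). Cfd, the gene of the adipokine and complement protease adipsin, lay at 10649 and 8038 TPM against 3604, 5664 and 652 TPM (-1.96, SE 0.85, unadjusted p 0.0457). The other 22 members overlapped between the genotypes. Fewer cells of a type and less RNA per cell cannot be told apart in such bulk tissue. Fatty acid synthesis (20 genes) had a median of -0.34, with -0.45 without the lymph node-rich libraries and 0.14 between them. It had 1 separated member in each direction, Acacb, the acetyl-CoA carboxylase that restrains fatty acid oxidation, at 54.1 and 44.2 TPM against 42.5, 34.0 and 8.40 TPM, and the elongase Elovl5 at 70.5 and 71.4 TPM against 76.4, 89.6 and 116 TPM. The 20 genes of triglyceride turnover and lipid droplets had a median of 0.20, from 0.42 without the lymph node-rich libraries to -0.35 between them, and the lipolysis inhibitor Hilpda was separated at 12.3 and 14.4 TPM against 15.3, 19.6 and 20.4 TPM. Fatty acid oxidation (22 genes) had a median of -0.019, with 0.13 without the lymph node-rich libraries and -0.44 between them, and 1 separated member, Eci2, at 143 and 164 TPM against 139, 140.1 and 106 TPM.

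The matrix list pointed in part toward higher values in the null libraries. Of 32 collagens and structural matrix genes, 20 had a higher mean, 8 (25%) were separated with null higher and 4 (12.5%) with null lower. The median was 0.29 over all 5 libraries, 0.37 without the lymph node-rich libraries and -0.022 between them. Col15a1, a collagen at basement membranes, was measured at 166 and 87.9 TPM in WT_HFD and 328, 505 and 181 TPM in Null_HFD (1.36, SE 0.45, unadjusted p 0.0144). Sparc, a collagen-binding glycoprotein, lay at 815 and 919 TPM against 1999, 1813 and 1131 TPM. The 3 chains of microfibrillar collagen VI all stood higher. Col6a1 lay at 133 and 139 TPM against 253, 319 and 173 TPM, Col6a2 at 102 and 91.1 TPM against 177, 255 and 106 TPM and Col6a3 at 129 and 96.5 TPM against 219, 271 and 143 TPM. In each of the 3, Null_HFD 2 was highest and Null_HFD 3 closest to the wild-type values. Col4a1, a main chain of basement membranes, had 0.77 (SE 0.31), but its groups overlapped, with 444, 408 and 231 TPM in Null_HFD against 178 and 233 TPM.

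The matrix members separated with null lower were a proteoglycan and 3 glycoproteins. The collagen gene Col4a3, described above and also separated lower, was not in this list, whose lowest difference was -0.81. Dcn, the gene of decorin, which binds collagen fibrils, lay at 1402 and 1306 TPM against 911, 890.1 and 638 TPM (-0.75, SE 0.31, unadjusted p 0.0369). Fibronectin, Fn1, lay at 317 and 323 TPM against 233, 253 and 181 TPM. The laminin chain Lama2 lay at 121 and 132 TPM against 95.8, 95.7 and 39.8 TPM, and the laminin chain Lamb1 lay at 199 and 197 TPM against 196, 178 and 61.2 TPM, with only Null_HFD 3 well below the wild-type values. Among 29 matrix proteases, inhibitors and crosslinking genes 3 were separated higher and 2 lower. Their median was 0.021, with 0.30 without the lymph node-rich libraries and -0.50 between them. Beside Serpinh1, the procollagen protease enhancer Pcolce lay at 102 and 81.1 TPM against 109, 145 and 144 TPM and the aggrecanase Adamts5 at 44.7 and 61.7 TPM against 69.9, 141 and 65.4 TPM. The gelatinase Mmp2 lay at 184 and 218 TPM against 165, 166 and 80.8 TPM, and the inhibitor Timp2 at 248 and 280.4 TPM against 245, 181 and 169 TPM. The fibroblast and progenitor list (23 genes) had a median of 0.18, with 0.36 without the lymph node-rich libraries and 0.017 between them. It had 5 members separated higher and 2 lower, led by the intermediate filament gene Vim, at 704 and 975 TPM against 1201, 1421 and 1274 TPM. The 27 integrin and focal adhesion genes had a median of 0.17, with 0.31 without the lymph node-rich libraries and -0.093 between them. Of these, 3 were separated higher and 1 lower, and the collagen receptor kinase Ddr1 lay at 11.5 and 11.9 TPM against 15.4, 39.2 and 28.0 TPM.

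Transcripts of genes around mTOR, the kinase that couples nutrients to growth, had no common direction. The 39 members of the mTOR and insulin list had a median of -0.094, 0.043 without the lymph node-rich libraries and -0.16 between them, with 3 (7.69%) separated higher and 6 (15.4%) lower. Rps6kb1, a kinase of ribosomal protein S6 that mTOR activates, was measured at 71.6 and 70.2 TPM in WT_HFD and 43.4, 54.8 and 53.3 TPM in Null_HFD (-0.49, SE 0.17, unadjusted p 0.0173). Pik3r1, a regulatory subunit of phosphoinositide 3-kinase, lay at 238 and 251 TPM against 142, 204 and 140.2 TPM. Both were separated the same way on the low-fat diet. Of the members known to restrain the complex, Akt1s1 (PRAS40), picked here by its p, lay at 33.3 and 48.9 TPM against 26.7, 27.2 and 29.1 TPM and Tsc1, picked likewise, at 22.6 and 21.9 TPM against 18.3, 18.2 and 17.98 TPM. On the low-fat diet both were separated the other way. Mtor itself lay at 23.0 and 22.3 TPM against 27.4, 26.3 and 23.4 TPM, and Rptor, its partner in complex 1, at 21.2 and 21.5 TPM against 27.9, 23.6 and 26.0 TPM, both slightly higher. These are transcript levels and do not measure kinase activity. The 20 ATF4 and mTORC1 target genes had a median of 0.15, with 0.23 without the lymph node-rich libraries and 0.13 between them, and 1 was separated in each direction, Trib3 at 2.74 and 3.13 TPM against 5.57, 7.50 and 3.55 TPM and Asns at 59.5 and 55.9 TPM against 54.2, 55.5 and 29.0 TPM.

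Immediate early genes, which are transcribed within minutes of a stimulus, mostly had a higher mean in the null group. The list summed to 191 and 295 TPM in WT_HFD against 243, 358 and 345 TPM in Null_HFD, so Null_HFD 1 lay below WT_HFD 2. Of 17 members, 14 had a higher mean, 4 (23.5%) were separated higher and 0 lower, and the median was 0.50, with 0.70 without the lymph node-rich libraries and 0.49 between them. Nr4a1 was measured at 2.19 and 3.17 TPM in WT_HFD and 5.97, 7.02 and 6.16 TPM in Null_HFD (1.02, SE 0.39, unadjusted p 0.0296). Ier3 lay at 3.83 and 3.54 TPM against 6.5, 7.32 and 5.56 TPM. Egr1 lay at 4.03 and 5.45 TPM against 10.1, 16.5 and 8.04 TPM and Egr2 at 0.910 and 3.8 TPM against 4.87, 20.1 and 7.05 TPM. The TGF-beta list (22 genes) had a median of -0.049, with 0.074 without the lymph node-rich libraries and -0.13 between them. In it, 4 members (18.2%) were separated lower and 1 higher. The activin antagonist Fst lay at 19.9 and 16.8 TPM against 11.4, 9.75 and 5.60 TPM (-1.01, SE 0.34, unadjusted p 0.0164), and the matricellular target gene Ctgf at 38.7 and 48.1 TPM against 23.1, 19.1 and 23.7 TPM. The 19 circadian clock genes had a median of -0.26, with -0.16 without the lymph node-rich libraries and -0.54 between them, and it was -0.065 without Null_HFD 3 alone. In this list 3 were separated lower, among them the repressor Bhlhe41 at 26.2 and 24.7 TPM against 12.5, 23.4 and 6.39 TPM. The time of day of tissue collection is not in the labels. The 19 adipogenic transcription factors had a median of -0.093, which turned to 0.093 without the lymph node-rich libraries and was -0.46 between them. Cebpd was separated at 30.5 and 60.9 TPM against 20.8, 18.6 and 28.1 TPM.

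Genes of lipid-associated macrophages, cells that gather around dying adipocytes, were in part higher. Of 20 members, 15 had a higher mean, 5 (25%) were separated higher and 2 (10%) lower, and the median was 0.41, with 0.43 without the lymph node-rich libraries and 0.31 between them. Trem2, the lipid receptor that marks these cells, was measured at 4.60 and 3.92 TPM in WT_HFD and 5.17, 17.4 and 14.8 TPM in Null_HFD (1.21, SE 0.46, unadjusted p 0.0278), with Null_HFD 1 near the wild-type values. The lysosomal acid phosphatase Acp5 lay at 187 and 208 TPM against 265, 303 and 224 TPM. The lysosomal proteases Ctsd and Ctsl and the fatty acid carrier Fabp5 were the other 3, with differences of 0.54, 0.38 and 0.81. Lgals3 and Mmp12 had higher means, but Null_HFD 1 lay within the wild-type range for both. Spp1, the gene of the matrix cytokine osteopontin, went the other way, at 767 and 827 TPM against 396, 165 and 161 TPM, and Apoe lay at 2677 and 3101 TPM against 2429, 2462 and 2587 TPM. The 22 general macrophage markers had a median of -0.019, with -0.086 without the lymph node-rich libraries and 0.30 between them, and 1 separated member, the lipopolysaccharide receptor gene Cd14, at 43.0 and 44.7 TPM against 33.9, 32.3 and 19.2 TPM. Their summed level was 1263 and 1600.2 TPM in WT_HFD against 1379, 1181 and 2699.9 TPM in Null_HFD, highest in Null_HFD 3.

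Of 22 chemokines and cytokines, 4 (18.2%) were separated higher and 0 lower, at a median of 0.078, with -0.022 without the lymph node-rich libraries and 0.56 between them. The monocyte attractant Ccl2 lay at 2.56 and 2.22 TPM against 4.74, 9.84 and 11.9 TPM (1.46, SE 0.52, unadjusted p 0.0203) and Ccl7 at 2.99 and 2.70 TPM against 3.07, 9.87 and 7.98 TPM. The interleukin-1 receptor antagonist Il1rn lay at 5.93 and 2.48 TPM against 7.79, 11.6 and 6.92 TPM, and Cxcl1 at 0 and 0.373 TPM against 1.31, 1.14 and 1.71 TPM. The complement and acute phase list (25 genes) had a median of -0.052, with -0.033 without the lymph node-rich libraries and -0.075 between them. It had 5 members (20%) separated lower and 1 higher. Serping1, the inhibitor of the first complement protease, lay at 352 and 402 TPM against 233, 189.9 and 257 TPM (-0.74, SE 0.23, unadjusted p 0.0101). It was separated the same way on the low-fat diet, at 324 and 274 TPM against 194, 184 and 133 TPM. Serping1 also lies on chromosome 2 (from 84765387), and the part of linkage to Fap was not tested. Lcn2, an iron-scavenging acute phase lipocalin, lay at 262 and 395 TPM against 161, 114 and 55.1 TPM. Cfd, described above, Saa2 and C1s1 were the other 3 lower members, and the lipopolysaccharide-binding protein gene Lbp was the higher one, at 30.5 and 53.5 TPM against 65.8, 64.5 and 60.2 TPM. None of the 10 MHC class II, 15 B cell, 18 T cell or 13 lymph node stroma genes was separated. With 1 lymph node-rich library in each genotype such genes can hardly separate, so these counts do not compare the genotypes.

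Markers of mammary luminal epithelium were mostly lower in the null libraries. Of 25 members, 23 had a lower mean, 8 (32%) were separated lower and 1 (4%) higher. The median was -1.02, with -0.45 without the lymph node-rich libraries and -1.90 between them, and the summed level was 2994 and 2413 TPM in WT_HFD against 2594, 1507 and 504 TPM in Null_HFD. Elf5, a transcription factor of milk-secreting cells, was measured at 82.4 and 72.2 TPM in WT_HFD and 58.5, 34.2 and 15.5 TPM in Null_HFD (-1.26, SE 0.51, unadjusted p 0.0358). The prolactin receptor gene Prlr lay at 162 and 112 TPM against 51.9, 111 and 25.9 TPM. The epithelial adhesion genes Cdh1 and Epcam lay at 29.0 and 34.0 TPM against 15.4, 23.2 and 8.35 TPM and at 104 and 112 TPM against 63.3, 75.9 and 22.6 TPM. In all 4 genes Null_HFD 3, with its high lymph node score, was lowest. The progesterone receptor gene Pgr was the separated member with null higher, at 3.16 and 4.47 TPM against 10.9, 6.59 and 5.31 TPM. Some genes described above are known to be made by luminal cells as well, among them Lcn2 and Spp1, and the part of luminal content in their differences was not tested. Mammary basal markers (13 genes) had a median of 0.0035, with 0.31 without the lymph node-rich libraries and -1.03 between them. Skeletal muscle markers summed to 4438 and 428 TPM in WT_HFD and 4266, 7535 and 247 TPM in Null_HFD, low in both lymph node-rich libraries, and 0 of 19 were separated.

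**Figure D4:**
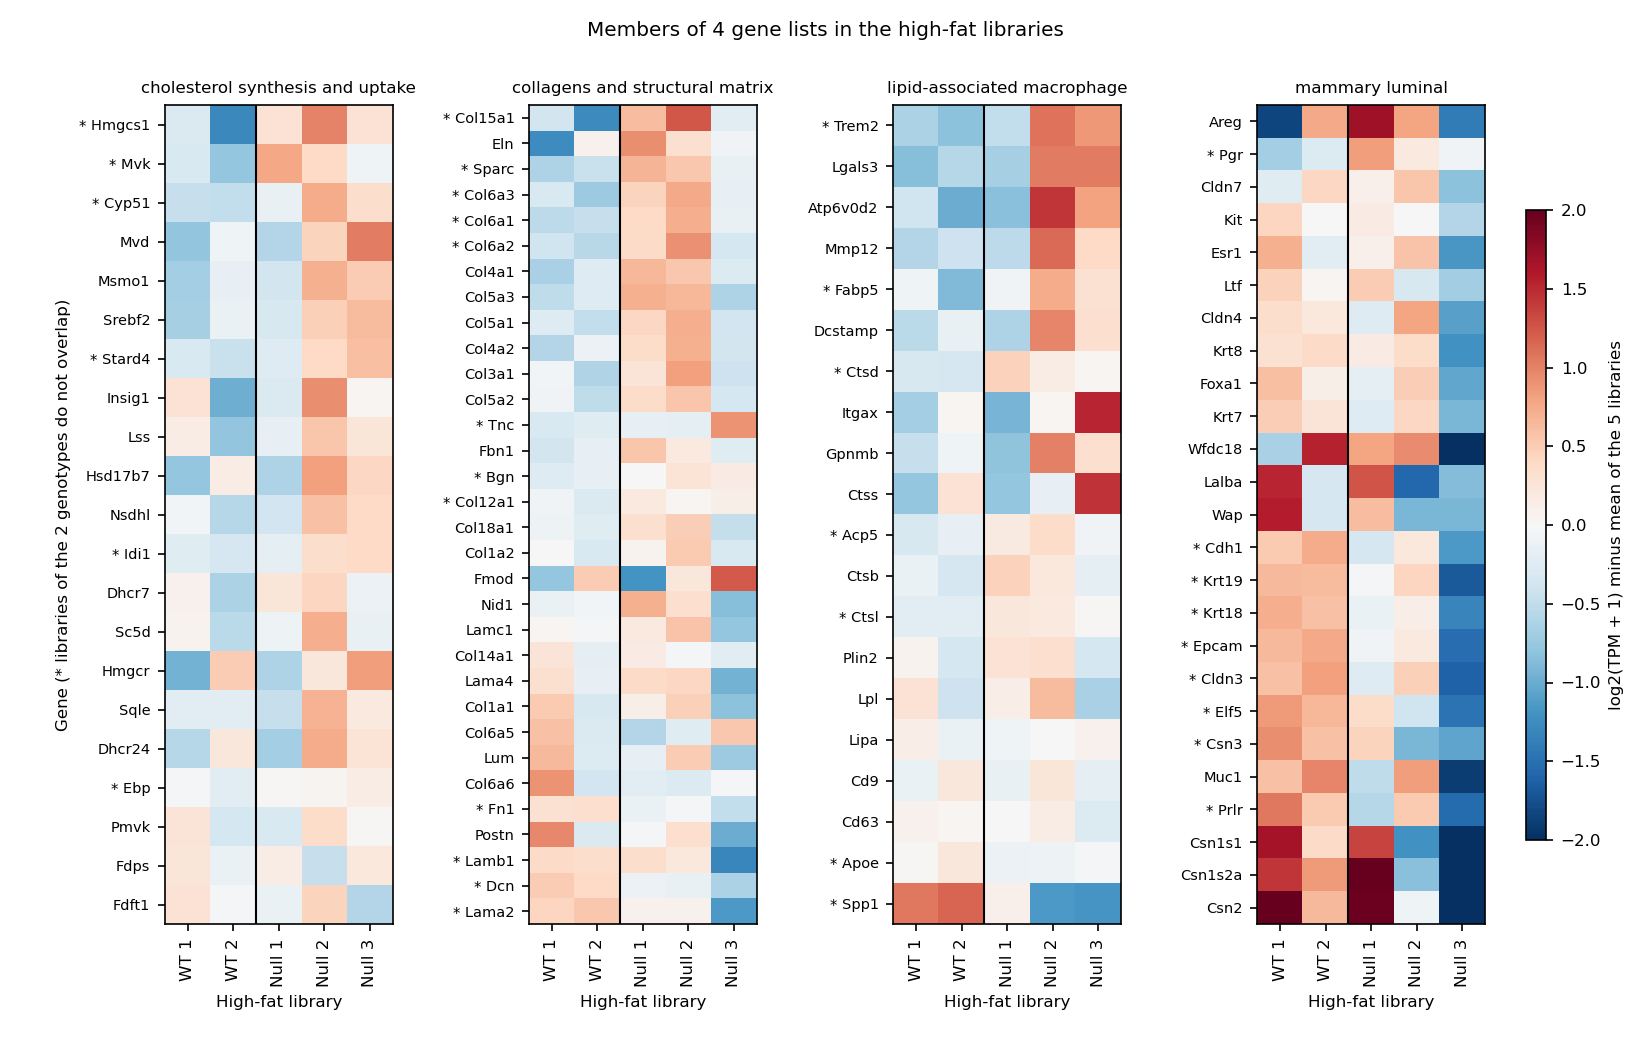
Each row is a gene reported here and each column a high-fat library; colour gives log2(TPM + 1) minus the mean of the 5 libraries, and stars mark genes whose 2 genotypes do not overlap. Relative to the mean of the 5 libraries, the cholesterol genes average -0.25 and -0.35 in WT_HFD and -0.20, 0.52 and 0.28 in Null_HFD. The luminal markers average -1.51 in Null_HFD 3.

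The low-fat libraries are other mice, and separation on the high-fat diet was counted without them. On that diet 3129 genes (19.4%) were separated with null higher and 1027 (6.36%) with null lower. Of the 1267 genes separated higher on the high-fat diet, 218 (17.2%) were separated the same way on the low-fat diet and 53 the opposite way. Of the 1252 separated lower, 115 (9.19%) were separated the same way and 231 (18.45%) the opposite way. For genes higher on the high-fat diet the share separated the same way, 17.2%, thus lay near the 19.4% of all genes, and for genes lower it was 9.19% beside 6.36%. The limma test of the difference between the diets called 0 genes (0.00%), with 668 at an unadjusted p under 0.05.

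Several gene groups had medians of opposite sign on the 2 diets. Cholesterol synthesis and uptake was at 0.51 on the high-fat and -0.50 on the low-fat diet, and mammary luminal markers were at -1.02 and 1.12. Hmgcs1 on the low-fat diet lay at 136 and 199 TPM in WT_LFD and 158, 122 and 77.8 TPM in Null_LFD, so the groups overlapped there. Elf5 lay at 29.9 and 17.2 TPM against 83.8, 119 and 54.1 TPM and Lep at 387 and 507 TPM against 133, 342 and 346 TPM. For Elf5 and Lep the low-fat groups were thus separated in the direction opposite to the high-fat groups. Immediate early genes and lipid-associated macrophage genes had the same sign on both diets, with low-fat medians of 0.43 and 0.43. Over all genes the low-fat median was 0.14.

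**Figure D5:**
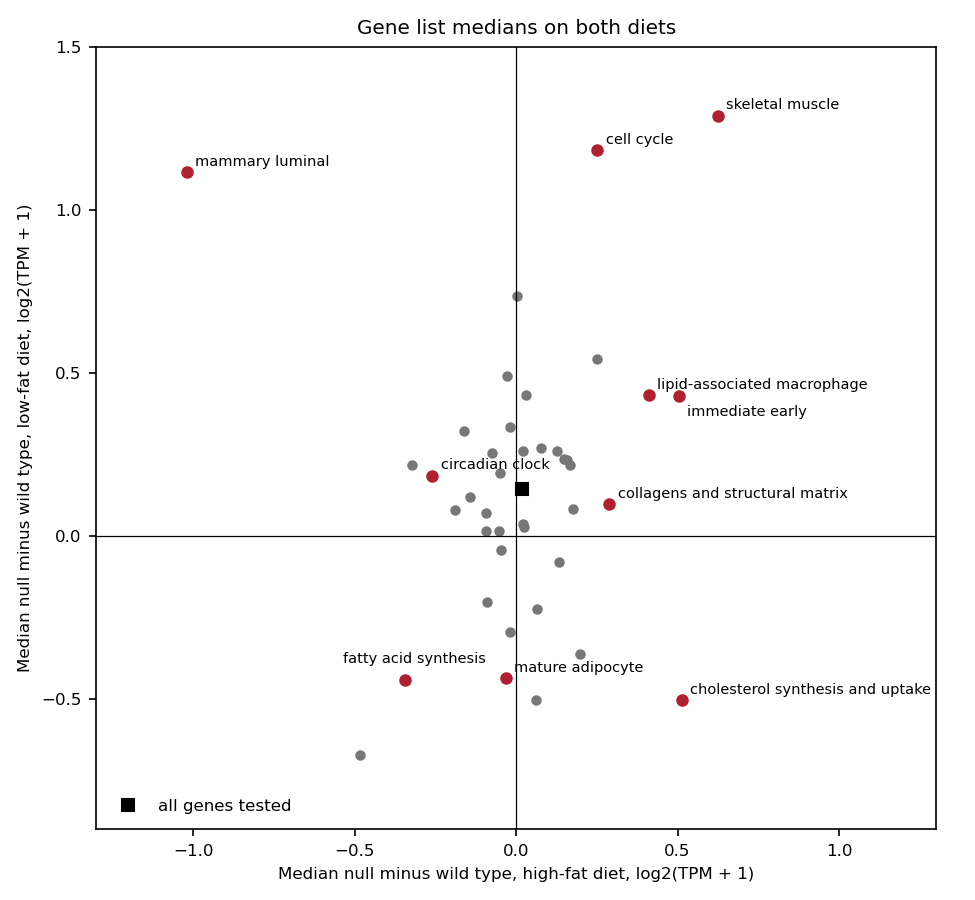
Each point is a gene list, with its median log2(TPM + 1) difference of null minus wild type on the high-fat diet on the horizontal axis and on the low-fat diet on the vertical axis; the square is the median of all genes tested. Mammary luminal lies at -1.02 and 1.12, and cholesterol synthesis and uptake at 0.51 and -0.50.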

How the data were processed

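The deposited values were log2(TPM + 1) per gene symbol, a unit inferred from the values, which begin at 0 and sum to 946103 to 954463 TPM per library when taken back. The authors used kallisto and limma with GRCm38, per the submitters' processing notes; no versions are given in the sources used here. RNA was depleted of ribosomal RNA and made into stranded total RNA libraries, per the labels' protocols. A line without a symbol held at most 0.0108% of TPM and was left out. Depth per library is unknown.

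Group means of all 10 libraries were fitted in limma 3.58.1 (R 4.3.3) with a variance trend and 6 residual degrees of freedom. All adjusted p-values are Benjamini-Hochberg values over the 16144 genes that reached 1 TPM in 2 or more of the 5 high-fat libraries, and a gene was called at 0.05 or less. Differences are null minus wild type on the log2(TPM + 1) scale, which understates low genes. The series calls its samples biological replicates without tying them to separate animals, so p-values measure the spread between these samples. Positions are from GENCODE M21. Shared sequence means at least 98% identity over at least 100 transcript bases in blastn. The fit was tested on simulated data with independent noise of the same spread in every library. Those data held no lymph node-rich libraries, so the test cannot show how such libraries affect the calls.

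Named were Fap, called genes, the 12 largest separated positive and the 12 largest negative differences with a mean of at least 5 TPM, leaving out predicted genes and pseudogenes, the 5 smallest p, and up to 4 members of each list by p; the text gives a part of them. The comparison and the gene lists were chosen with earlier results of these data known. Replicate numbers were not taken as pairs. Alternatives covered scaling, filters, the pseudocount, weights, a lymph node covariate, a replicate block and left-out libraries. Summing genes that share sequence in this sense was added, for 3 families, after the data were seen. A member gene, counted in its list, is not reported here.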

Additional observations from a re-analysis of the deposited data

Results flagged for a closer look

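Among 186 named genes, 13 were separated in opposite directions by genotype on the 2 diets. Of all 16144 genes tested, 284 were, which is 11.27% of the 2519 genes separated on the high-fat diet. The 186 named genes include some that were not separated on the high-fat diet, so the 13 cannot be read against the 11.27%. Many of the named genes were named because they were separated or had a small p. Dusp23 and Tor1aip1, described above as separated in opposite directions, were picked with their values in view and are not among the 186. The limma test of the difference between the diets gave an adjusted p of 0.973 for Elf5 and of 1.00 for the other 12, so none passed. Values are the high-fat genotype difference minus the low-fat one on the log2 scale, each with its SE.

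Of the epithelial and basal genes, Elf5 had -3.06 (SE 0.725), Epcam -2.28 (SE 0.734), and Trp63, a transcription factor of basal cells, -2.36 (SE 0.727). The neural crest factor Sox10 had -2.36 (SE 0.908). The summed luminal level was lowest in Null_HFD 3, and its part in these values was not tested.

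Of the secreted and metabolic genes, Lcn2 had -3.67 (SE 0.961), the growth factor Tgfb2 -2.24 (SE 0.685), Lep 2.12 (SE 0.762), Elovl5 0.841 (SE 0.332) and Eci2 -0.551 (SE 0.257). The mTOR inhibitor Akt1s1 had -1.27 (SE 0.381), and the inhibitor Tsc1 had -0.53 (SE 0.249). The laminin receptor subunit Itga7 had 1.2 (SE 0.467) and C2cd4c had -2.93 (SE 0.933).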

How the results depend on the processing

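Calls rested on the setting. Beside 2 genes called, limma called 4 from only the 5 high-fat libraries, 1 with a pseudocount of 0.1, 16 without a filter, 0 with sample weights and 0 with genes that share sequence summed, and between 0 and 3 with 1 library left out. The adjusted p of Rps12l1 ranged from 0.000651 to 1.00 and that of Gm18588 from 0.0219 to 1.00. Genes at an unadjusted p under 0.05 numbered 1040 with the lymph node score as a covariate and 457 to 1113 with 1 library left out, the highest without Null_HFD 3. Of these, 49.9% were higher in null with all libraries, 61.1% without WT_HFD 2, 36.6% without Null_HFD 2 and 63.6% without both lymph node-rich libraries. Separated genes, 2519 in all, numbered 10643 without both of those libraries and 2519 to 7001 with 1 left out, since fewer libraries separate more easily. The diet interaction had 1 call without a filter and 0 to 2 with 1 library left out. The count of genes separated the same way on both diets, 333 in all, was 1642 without both lymph node-rich libraries and 452 to 1278 with 1 left out.

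Without both lymph node-rich libraries the medians of mTOR and insulin signalling, type I interferon response, and heat shock and stress were 0.0428, -0.429 and 0.0116. With 1 library left out, medians ranged from -0.964 to 0.619 for fatty acid synthesis, -0.193 to 0.0561 for mTOR and insulin signalling, -0.0913 to 0.172 for macrophages, -0.227 to 0.0062 for complement and acute phase, -0.228 to 0.487 for plasma cells, -0.396 to 0.0327 for interferon response and -0.291 to 0.0152 for heat shock and stress. The cause was not tested. Of 41 lists, 7 kept the sign of their median in all 22 settings: cholesterol, ATF4 targets, collagens, lipid-associated macrophage, luminal, immediate early and circadian. The 116 genes checked kept their sign in every setting, but separated genes were chosen for their direction. Some of the 22 settings leave the high-fat group means, and so these differences and medians, unchanged. They are leaving out a low-fat library, fitting the high-fat libraries alone and fitting without a variance trend. No sign could change there, for lists or genes, so only the remaining settings check the sign. With the replicate block limma again called 2 genes, 698 had an unadjusted p under 0.05, and the cell cycle median was -0.478 in place of 0.25. Deviations of same-numbered libraries correlated at 0.43 for number 1 and -0.36 for number 2. The deviations of 2 wild-type libraries from their mean mirror each other, so these values cannot show whether the numbers mark pairs.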
